A study of Mus musculus with 8 samples.

Results

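The genes described here are 10 sensors and relays of the danger response: the Toll-like receptors Tlr2, Tlr3, Tlr4, Tlr7 and Tlr9, the co-receptor Cd14, the adaptor Myd88, the danger ligand Hmgb1, the interleukin-1 receptor Il1r1 and the ATP receptor P2rx7. They were chosen by name, as array probes carrying 1 of these 10 names, out of 36666 gene names on the array. All 10 were on the array, with 21 probes in all, and 9 had a probe bright enough to test. Total RNA from livers of male mice was hybridised 8 h after acetaminophen to single-colour Agilent arrays, 1 array per sample. There were 4 samples from mice aged 8 weeks (young) and 4 from mice aged 80 weeks (old). The drug was given to both ages, so every level below is one after treatment. Untreated livers were not analysed here, and a difference at rest and a difference in the response to the drug cannot be told apart. Neither the dose nor the strain was given in the sources used here. The same holds for whether the 4 samples of an age came from different mice, so the p-values rest on a spread between samples that may be technical.

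Acetaminophen kills hepatocytes around the central vein, and dying cells release molecules that are normally kept inside, among them the chromatin protein HMGB1, DNA and ATP. Toll-like receptors read such molecules, and microbial ones, at the cell surface (TLR2, TLR4) or from inside endosomes (TLR3, TLR7, TLR9). All of these except TLR3 signal through the adaptor MyD88, as does the interleukin-1 receptor, while extracellular ATP opens the channel P2X7 and sets off inflammasome assembly. In liver these receptors are known from Kupffer cells, recruited myeloid cells, sinusoidal endothelium and, in part, hepatocytes. In whole liver RNA, fewer cells of a type and less RNA per cell cannot be told apart.

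Levels are log2 intensities after subtraction of the array's own 75th percentile, and a difference is 80-week minus 8-week throughout. A level is meaningful for 1 probe across arrays, not between probes. The share of probes well above background, by the scanner software's own test, ran from 43.3% to 50.4% over the 8 arrays. Young replicates 1 and 2 stood apart from the other 6 arrays on the first principal component of the tested genes, at -61.3 and -99.2 against 10.2 to 47.5. A difference of a tested member on its brightest probe, or of a named related gene, is also given without them where that moved it by over 1.5 times. Further probes of a member are given with all 8 arrays unless stated. All 10 hepatocyte markers were tested, with summed levels (linear, in units of the array's 75th percentile) of 2744 to 5236 in young and 3643 to 5952 in old livers, and 0 of the 10 passed the test. The sum of 2744 was that of young replicate 2, on which 9 of the 10 were lowest. That array had the lowest sum in 4 of 10 marker lists. Such a sum is carried mostly by the brightest probes of its list. On the slide the young samples took the positions of one row and the old samples those of the other, and position and age cannot be told apart.

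How many probes a gene has, and what they are aimed at, bore on 3 of the genes, and for these the start of each 60-base probe is shown as the array files give it, 5′ to 3′ (30 bases each; mm9 coordinates of the whole probe). The 3 Tlr4 probes are shown because they did not report the same transcript. The brightest, A_55_P2714823 at chr4:66591199-66591258, was listed for an Ensembl transcript and a RIKEN clone, with no RefSeq accession. It lay 87416 bases beyond A_51_P300806 at chr4:66503724-66503782. The latter and A_55_P2603039, at chr4:66500344-66500403, both carried the RefSeq mRNA NM_021297, and only 3320 bases separated them. All 3 lay on the plus strand.
Tlr4 A_55_P2603039: ccagagtttttccccaggaagtttctctgg
Tlr4 A_51_P300806: tgtgatagggctttaaatagttgagctaat
Tlr4 A_55_P2714823: tcttccatagtttgtgcttcatgtccctgc

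P2rx7 had 3 probes on the plus strand of chromosome 5, each listed first for another RefSeq transcript. A_55_P2183010, at chr5:123105174-123105233, was listed for NM_001038887, A_51_P506733 for NM_001038845 and A_52_P393314, at chr5:123134194-123134253, for NM_011027. The genomic positions of A_51_P506733 spanned 2886 bases for a 60-base probe, from chr5:123120528-123123413, which is longer than the probe itself.
P2rx7 A_55_P2183010: ggtcaaaaagctccccaatccatgcaacaa
P2rx7 A_51_P506733: tttcggcactggaggaaaatttgacatcat
P2rx7 A_52_P393314: ttcacttctctctttaaagggaaccatctt

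Hmgb1 had 4 probes on the minus strand of chromosome 5. A pair of them, A_55_P2082986 at chr5:149861395-149861454 and A_55_P2131483 at chr5:149861346-149861405, share 11 bases, shown in capitals in the end of the first and the start of the second, and so are not independent. Of the 4, A_55_P2025153, A_55_P2082986 and A_55_P2131483 shared a run of 20 bases with 1, 3 and 1 probes, in that order, that carry another name on this array. The remaining probe shared none. Hmgb1 has many near-identical processed copies in the mouse genome, so its signal may hold more than 1 locus.
Hmgb1 A_55_P2082986, last 30 bases: atcctggtttatctattgtTGATGTTGCAA
Hmgb1 A_55_P2131483, first 30 bases: TGATGTTGCAAagaaactagaagagttgtg

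The comparison asked whether the transcripts of these sensors differed between young and old livers at this time after the drug. Of the 9 tested genes, 0 passed the threshold of 0.05 on the adjusted p, in either direction, by limma over 17565 genes, where 0.359% of all genes passed (0.33% higher and 0.0285% lower in old livers). At an unadjusted p under 0.05 there was 1 gene, P2rx7, where 14.1% of all genes lay (7.91% higher and 6.14% lower). The groups did not overlap for P2rx7 alone, where 8.38% of all genes did not overlap (4.62% higher and 3.76% lower). The differences ran from -0.60 for Tlr2 to 0.72 for P2rx7, with 6 negative and 3 positive and a median of -0.18, where 48% of all genes were negative and the median was 0.02. Young replicate 2 was the brightest array for 2 of the 9 genes, and for 20.2% of all genes. A p that missed the threshold does not show that the ages were alike, and 95% intervals of the ratio of old over young are given with the genes.

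**Figure D1:**
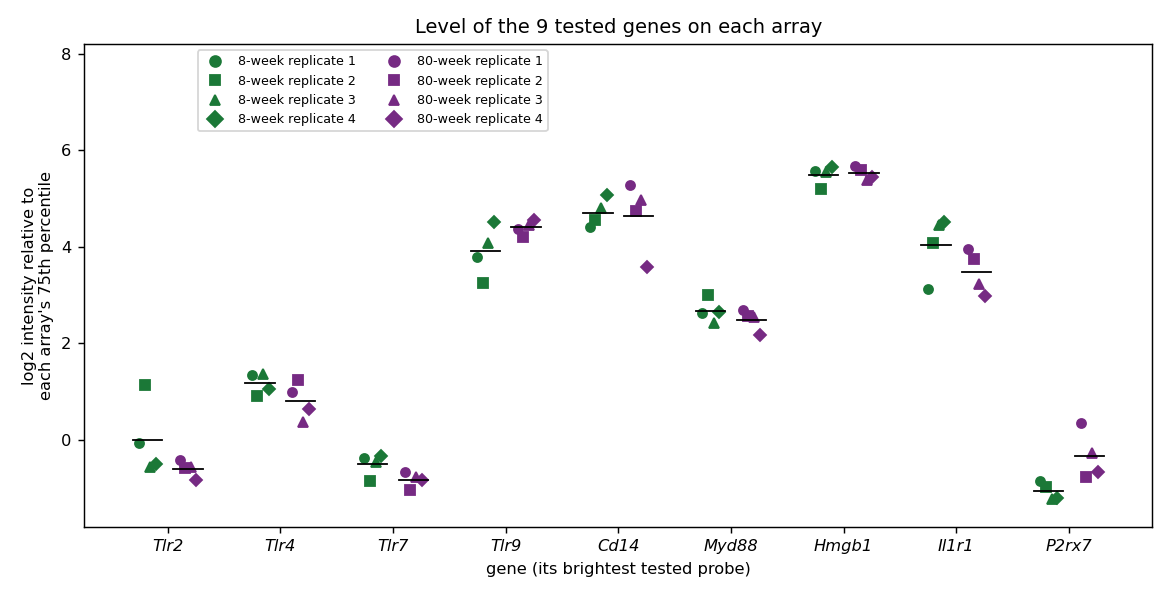
Log2 intensity minus that array's 75th percentile (vertical axis) of the brightest tested probe of 9 genes on the 4 young (green) and 4 old (purple) arrays, with black bars at the group means. P2rx7 is the gene whose groups do not overlap, Tlr2 is high on young replicate 2 (1.13), and Cd14 is low on old replicate 4 (3.58).

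Among the surface receptors, Tlr2 pairs with Tlr1 or Tlr6 to read lipoproteins and is itself induced by inflammation. On the young arrays its level was -0.07, 1.13, -0.57 and -0.49 (replicates 1 to 4), and on the old arrays -0.42, -0.58, -0.56 and -0.83. Young replicate 2 was the highest of the 8, while young replicates 3 and 4 lay among the old ones. The difference was -0.60 (SE 0.35, adjusted p = 0.449), a ratio of old over young of 0.662 (95% interval 0.381 to 1.15). It was -0.22 without young replicate 2 and -0.07 without young replicates 1 and 2. With weighted arrays it was -0.16. Of 9 tested neutrophil markers, 4 were highest on the same array (S100a8, S100a9, Cxcr2 and Mmp8) and 2 were lowest there (Elane and Camp), as named after their values were seen. The summed neutrophil level of that array was 256.1, below the 266.1 of old replicate 1. Most of this sum came from Csf3r and S100a9, the brightest of the 9 on average. Csf3r read 6.65 on young replicate 2 and 7.13 on old replicate 1, while S100a9 read 6.83 and 6.51. The order of the 2 sums thus rested on Csf3r, and the part of neutrophils in the Tlr2 value was not tested.

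Tlr4 is the receptor for bacterial lipopolysaccharide and for HMGB1. Its tested value came from the distant probe A_55_P2714823 shown above, at 1.35, 0.90, 1.37 and 1.06 on the young arrays and 1.00, 1.25, 0.36 and 0.64 on the old. Old replicates 3 and 4 were below all young arrays and old replicates 1 and 2 among them, and the difference was -0.36 (SE 0.24, adjusted p = 0.491; 95% interval of the ratio 0.542 to 1.13). It was -0.20 without old replicate 3. Whether this probe reads a transcript of Tlr4 was not settled here: the array lists it under that name. The probe A_51_P300806 of the RefSeq mRNA gave another picture. Its groups did not overlap, and it was well above background only on young replicates 1 and 2, at -1.86 and -1.36, and on 0 of the 4 old arrays, where it read from -4.67 to -4.08. Against the lowest signal well above background on the old arrays, the measured young mean was 1.48-fold higher, a value that carries no sampling error. The mean included young replicates 3 and 4, which were not well above background, so the value is not a strict lower bound. The 1.48-fold value rested on the pair that stood apart: without that pair the young mean was -3.36, under the floor of -3.05. The difference in measured means was then -0.998 in place of -1.87. This probe was above background on too few arrays (2 of 8, with 4 required) to be tested. The further RefSeq probe, A_55_P2603039, was well above background on old replicate 2 alone, at 0.20, where the other 7 arrays read -4.84 or less. The Tlr4 probes of this array thus gave different differences, and the tested value is that of the distant probe only.

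**Figure D2:**
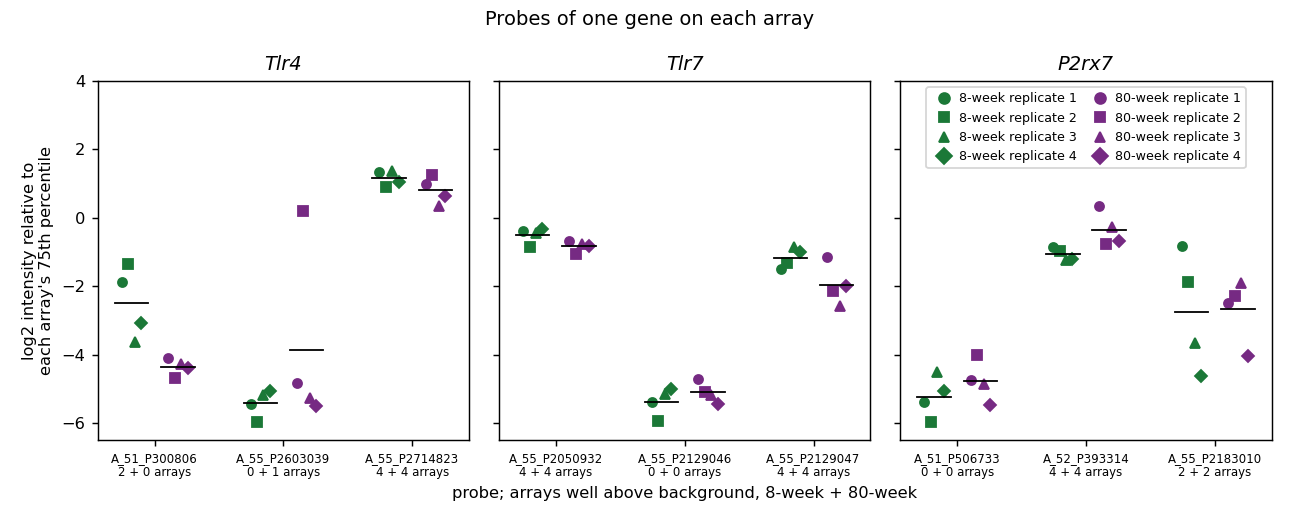
Log2 intensity minus that array's 75th percentile (vertical axis) for every probe of Tlr4, Tlr7 and P2rx7, with young arrays in green, old in purple, black bars at group means and the number of arrays well above background under each probe. The Tlr4 probe A_51_P300806 separates young replicates 1 and 2 from the rest, and the P2rx7 probe A_55_P2183010 varies within the young group from -4.62 to -0.82.

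Cd14 is a lipid-anchored co-receptor that hands lipopolysaccharide to TLR4, and it was measured by 2 probes, 182 bases apart. On the brighter one the young arrays read 4.40, 4.55, 4.80 and 5.08 and the old ones 5.27, 4.74, 4.97 and 3.58. Old replicate 1 was the highest of all arrays and old replicate 4 the lowest, with the other 6 arrays between them. The difference was -0.07 (SE 0.35, adjusted p = 0.942), a ratio of 0.955 (95% interval 0.552 to 1.65). The other probe gave -0.11 with the same array lowest, at 2.70. Without old replicate 4 the difference turned to 0.29, and without young replicate 4 to 0.06, while without young replicates 1 and 2 it was -0.30. Old replicate 4 had the lowest sums in 3 of 10 marker lists, among them neutrophils with 122.7 against 164.1 to 266.1 on the other 7 arrays. The part of this in the Cd14 value was not tested.

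Of the endosomal receptors, Tlr3, which reads double-stranded RNA, was close to the detection limit. Of its 2 probes, A_52_P85174 was well above background on 0 of 8 arrays and A_55_P2921249 on 1, young replicate 2 at -3.71, while old replicate 4 read -3.41 without passing the background test. No difference is given. Tlr7, a receptor for single-stranded RNA, was read by 3 probes, of which A_55_P2129046 was above background on 0 arrays. The brightest, A_55_P2050932, read -0.37, -0.85, -0.45 and -0.33 on the young and -0.66, -1.04, -0.77 and -0.82 on the old arrays. The groups overlapped through young replicate 2, and the difference was -0.32 (SE 0.19, adjusted p = 0.442; 95% interval of the ratio 0.595 to 1.07). The neighbouring probe A_55_P2129047, 223 bases away, read -1.49, -1.32, -0.86 and -0.98 on the young and -1.15, -2.14, -2.57 and -1.99 on the old arrays. Here old replicate 1 was the array that overlapped the young group, and the difference was -0.80 (SE 0.31, adjusted p = 0.314 over the tested probes). Both tested Tlr7 probes were thus lower on average in old livers, and 0 of them passed. The mean of both gave -0.56, and the normexp settings -0.20 and -0.19 for the brighter one.

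Tlr9, a receptor for DNA rich in unmethylated CpG, differed by 0.49 (SE 0.27, adjusted p = 0.418), a ratio of 1.40 (95% interval 0.928 to 2.12). Its single probe read 3.78, 3.26, 4.08 and 4.52 on the young and 4.37, 4.21, 4.46 and 4.56 on the old arrays. Young replicates 1 and 2 were the lowest of the 8, whereas young replicate 4 lay among the old arrays and young replicate 3 just below them. Without that pair the difference was 0.10, without young replicate 2 alone 0.27, and with weighted arrays 0.19. Tlr9 and Tlr2 therefore shared the arrays that carried their difference, with opposite signs.

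Myd88, the adaptor that couples most Toll-like receptors and the interleukin-1 receptor to their kinases, read 2.62, 3.01, 2.43 and 2.64 on the young and 2.69, 2.57, 2.54 and 2.17 on the old arrays. Young replicate 2 was the highest and old replicate 4 the lowest, and the other 6 arrays overlapped. The difference was -0.18 (SE 0.20, adjusted p = 0.684), with a 95% interval of the ratio from 0.645 to 1.20. Without young replicates 1 and 2 it was -0.04, without old replicate 4 it was -0.08, and with median scaling -0.29.

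Il1r1, the receptor through which interleukin-1 alpha and beta signal, read 3.12, 4.07, 4.46 and 4.52 on the young arrays and 3.95, 3.75, 3.24 and 2.99 on the old ones. Young replicates 3 and 4 were the highest and old replicate 4 the lowest, but young replicate 1 lay among the old arrays. The difference was -0.56 (SE 0.35, adjusted p = 0.465), a ratio of 0.678 (95% interval 0.395 to 1.16). Unlike that of Tlr2, it was larger without young replicates 1 and 2, at -1.01, with 2 young arrays left, and it stayed short of the threshold. The summed level of sinusoidal endothelial markers was also lowest on old replicate 4, at 78.6 against 83.5 to 134.1 on the other 7 arrays. Of the 11 markers, 4 were lowest there and 4 on young replicate 2. The part of these markers in the Il1r1 value was not tested.

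Hmgb1, a chromatin protein that acts as a danger ligand once outside the cell, had the smallest SD over the 8 arrays of the 9. Its brightest probe read 5.56, 5.21, 5.54 and 5.64 on the young and 5.68, 5.60, 5.39 and 5.45 on the old arrays. The groups overlapped, and the difference was 0.04 (SE 0.18, adjusted p = 0.929), with a 95% interval of the ratio from 0.780 to 1.36. The other 3 probes gave -0.06, -0.20 and -0.10, and the sign for the gene turned in 7 of 21 other settings, among them the one without young replicates 1 and 2 (-0.06). Release of the protein from cells is not seen by this measurement.

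P2rx7, the ATP-gated channel upstream of the inflammasome, had the largest difference. On the probe of NM_011027 the young arrays read -0.85, -0.98, -1.22 and -1.20 and the old ones 0.35, -0.78, -0.28 and -0.66. All 4 old arrays were above all 4 young ones, although old replicate 2 cleared young replicate 1 by little. The difference was 0.72 (SE 0.26, adjusted p = 0.305), a 1.65-fold ratio with a 95% interval from 1.10 to 2.47, and higher levels without overlap were found for 4.62% of all genes. The difference was 0.47 with normexp and percentile scaling and 0.40 (adjusted p = 0.705) with the mean of its tested probes. Without old replicate 1 it was 0.49. That array also had the highest sums in 7 of 10 marker lists, hepatocytes (5952) and stellate cells (380.0) included. Its Kupffer cell sum was 376.2 against 123.4 to 257.6 on the other 7 arrays, and the part of these in the P2rx7 value was not tested.

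The probe of the P2rx7 transcript NM_001038887 did not follow that pattern over all 8 arrays. It was well above background on 4 of the 8 arrays, 2 of each age, and read -0.82, -1.87, -3.66 and -4.62 on the young and -2.47, -2.28, -1.90 and -4.02 on the old arrays. Its difference was 0.07 (SE 0.79, adjusted p = 0.971 over the tested probes), and young replicates 1 and 2 were far above young replicates 3 and 4. Without that pair its difference in measured means was 1.47, where the probe of NM_011027 gave 0.87, with 2 young arrays left. The probe of NM_001038845 was well above background on 0 arrays. Over all 8 arrays the largest difference of the 9 genes thus came from the probe of NM_011027 alone.

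**Figure D3:**
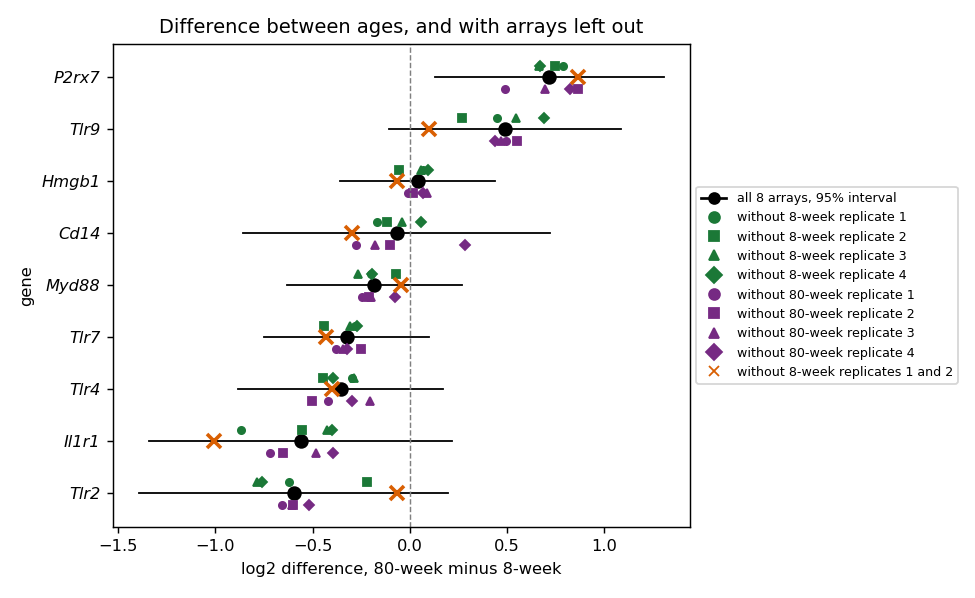
Log2 difference, 80-week minus 8-week, for each of the 9 tested genes (horizontal axis) with its 95% interval (black), the values with 1 array left out (green and purple) and the value without young replicates 1 and 2 (orange cross). Tlr2 and Tlr9 move towards 0 without that pair (-0.07 and 0.10), Il1r1 moves away from it (-1.01) and P2rx7 stays between 0.49 and 0.87.

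The 3 genes with the largest spread over the 8 arrays were Tlr2, Il1r1 and Cd14. For each, the genes with the nearest profile were found by the root mean square difference of centred levels over 8 arrays. For Tlr2 these were Ezr (0.13), Fam102b (0.15) and Ero1l (0.16), where the median over all genes was 0.72. Il1r1 was nearest to Mpped1 (0.24), Afap1l1 (0.27) and Fbln2 (0.29), with a median of 0.67. Cd14 was nearest to Gm15050 (0.12), Plekhg1 (0.13) and Vmn1r173 (0.20), with a median of 0.62. Among 17565 genes some profiles lie near any other over 8 arrays, so these names are a description.

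Other genes of the danger response, 97 in 7 lists, were read from the same fit, and 78 had a tested probe. By limma 0 of the 78 passed the threshold. At an unadjusted p under 0.05 there were 6 higher and 8 lower in old livers, 17.9% of the 78 against 14.1% of all genes tested. Groups did not overlap for 11 of them, 14.1% against 8.38%, and the median difference was -0.08.

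Among the other Toll-like receptors 0 of 5 tested genes passed. At an unadjusted p under 0.05 there were 2 higher and 2 lower, 80% of the 5 against 14.1% of all genes. Groups did not overlap for 3 of them (Tlr5, Tlr12 and Tlr13), 60% against 8.38%. Tlr5, the flagellin receptor, differed by 2.55 (SE 0.52, adjusted p = 0.0985), with young arrays at -2.55, -3.92, -1.48 and -1.33 and old ones at -0.26, 0.14, 0.57 and 0.48. The groups did not overlap. Any 1 of its probes was well above background on at most 3 young and 4 old arrays, so the size is not exact. It passed with normexp background correction and quantile scaling (1.50, adjusted p = 0.0412) and with array weights (1.88, adjusted p = 0.0266), and was 1.64 (adjusted p = 0.168) without young replicates 1 and 2. Tlr12, a profilin receptor, differed by 1.97 (SE 0.43, adjusted p = 0.125) and, of the settings tried, passed only without old replicate 1 (2.36, adjusted p = 0.0381). Tlr13, which reads bacterial ribosomal RNA, differed by -0.96 (adjusted p = 0.305). Of the 7 in this list, Tlr1 and Tlr11 were not tested.

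Among co-receptors and trafficking factors 0 of 9 tested genes passed. The scavenger receptor Cd36 differed by 1.61 (SE 0.59, adjusted p = 0.305), Unc93b1, which carries TLR3, TLR7 and TLR9 to endosomes, by 0.35, and Ly96, the partner of TLR4 that binds lipopolysaccharide, by -0.28. In adaptors and proximal kinases 0 of 19 passed and 0 had an unadjusted p under 0.05. The smallest p belonged to Tirap, which brings MyD88 to TLR2 and TLR4, at -0.69 (SE 0.31, adjusted p = 0.363). The kinases Tbk1 and Chuk differed by -0.37 and 0.51. Without young replicates 1 and 2 the values were -0.01 for Ly96, -0.31 for Tirap and 0.15 for Chuk, and Chuk was 0.31 without young replicate 2 alone. Ly96 was -0.93 with the mean of its probes.

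In the interleukin-1 family 0 of 9 passed. The receptor antagonist Il1rn read 1.93 and 1.78 on young replicates 1 and 2 and from -1.62 to -1.10 on the other 6 arrays, a difference of -1.91 (SE 0.70, adjusted p = 0.305) that was -0.42 without that pair. Il18 differed by 0.65 and Il33 by -1.38 (adjusted p = 0.367 and 0.401), which became 0.38 and -0.16 without the same pair. Of danger ligands and other danger receptors 0 of 14 passed. The formyl peptide receptor Fpr2 read 2.25, 2.68, 2.37 and 2.73 on the young and 1.65, 1.32, 0.33 and -0.08 on the old arrays, a difference of -1.70 (SE 0.37, adjusted p = 0.120), without overlap. It passed with array weights (-1.77, adjusted p = 0.0442). Its relative Fpr1 differed by -2.09 (SE 0.55, adjusted p = 0.184) and the lectin receptor Clec4e by -1.48 (adjusted p = 0.345). Clec4e was -0.91 without young replicate 2 and -0.73 without young replicates 1 and 2.

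Purinergic receptors and ectonucleotidases had 0 of 12 past the threshold. P2ry6, a receptor for UDP, differed by -1.49 (SE 0.38, adjusted p = 0.172), Nt5e, which makes adenosine from AMP, by 1.42 (adjusted p = 0.305) and the ectonucleotidase Entpd2 by 0.72 (adjusted p = 0.326). With the replicate number as a block Fpr1 (adjusted p = 0.0402) and P2ry6 (adjusted p = 0.0480) passed. Of cytosolic sensors 0 of 10 passed. Tmem173, which encodes STING, differed by -1.11 (SE 0.49, adjusted p = 0.355), the inflammasome adaptor Pycard by -0.38 and the interferon-inducible Ifi204 by -0.81. Without young replicates 1 and 2 P2ry6 was -0.99 and Tmem173 -0.66, without old replicate 3 Ifi204 was -0.47, and with the mean of their probes P2ry6 was -0.92 and Pycard -0.10. Nlrp3 was well above background on 0 arrays.

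**Figure D4:**
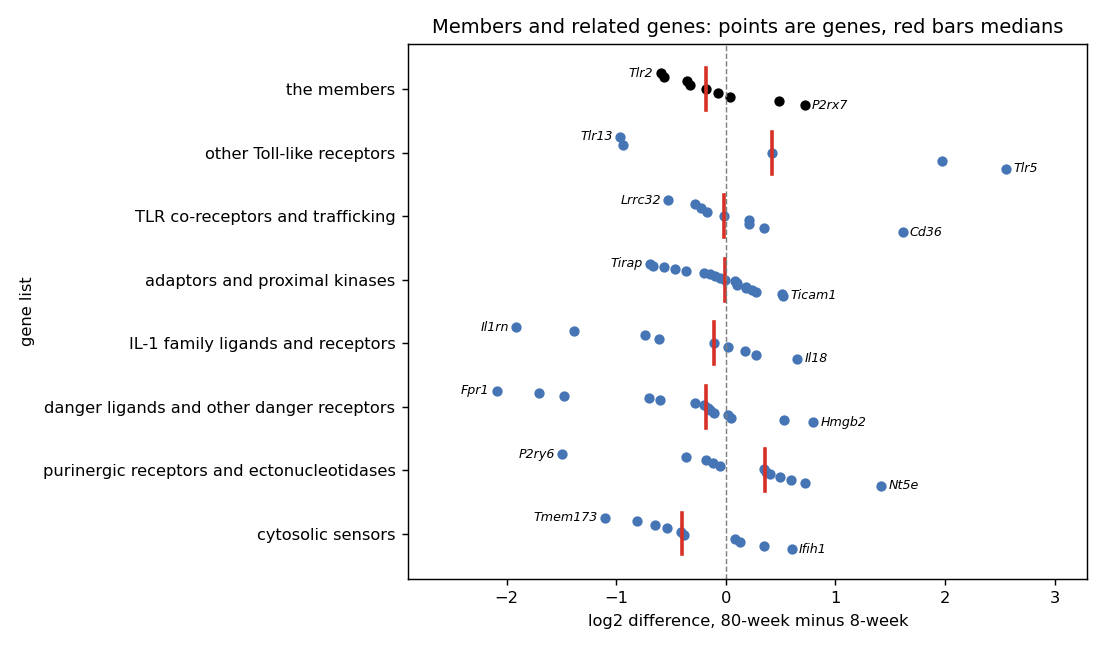
Log2 difference, 80-week minus 8-week (horizontal axis), of the 9 tested members and of the 78 tested related genes by list, with 1 point per gene, the median in red and the outermost genes named. The 9 members lie between -0.60 and 0.72, and the outermost related genes are Fpr1 at -2.09 and Tlr5 at 2.55.

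Markers of the cells that carry these receptors were read beside them. Of 13 Kupffer cell markers all were tested and 0 passed, with summed levels of 123.4 to 257.6 in young and 134.7 to 376.2 in old livers. Of the 13, 10 were higher on average in old livers and 3 lower. Vsig4 differed by 0.36, and Slc40a1, with the smallest p, by -0.97 without overlap (adjusted p = 0.294). Of 12 neutrophil markers 9 were tested and 0 passed (summed 181.8 to 256.1 and 122.7 to 266.1), with Ltf and Ngp above background on 0 arrays. Of the 9, 3 were higher on average in old livers and 6 lower. Cxcr2 had the smallest p, at -1.47 with overlap (adjusted p = 0.359). S100a8 was at -0.70 (-0.29 without old replicate 4 and -0.46 without young replicates 1 and 2). Monocyte markers had 8 of 10 tested and 0 passing (199.2 to 242.5 and 182.6 to 280.2). F10, the gene of coagulation factor X, was the brightest of these on average (6.74 in young and 7.02 in old livers). The monocyte sum is therefore not a measure of monocytes alone. Of the 8, 3 were higher on average in old livers and 5 lower, and Chil3 had the smallest p, at -3.73 without overlap (adjusted p = 0.117). Sinusoidal endothelial markers had 11 of 11 tested and 0 passing (86.96 to 129.2 and 78.6 to 134.1), with 3 higher on average in old livers and 8 lower. Lyve1 was at -1.09 (adjusted p = 0.283, and -0.69 without old replicate 4), and Gpr182, with the smallest p, at -1.29 without overlap (adjusted p = 0.192). Stellate markers had 9 of 9 tested and 0 passing (190.4 to 297.6 and 256.5 to 380.0). Of these, 7 were higher on average in old livers and 2 lower, and Reln, with the smallest p, was at 1.05. Dendritic cell markers had 4 of 8 tested and 0 passing (63.51 to 131.1 and 62.25 to 148.6), T and NK cell markers 5 of 11 and 0 (10.62 to 37.15 and 22.86 to 36.9), and cholangiocyte markers 3 of 7 and 0 (10.3 to 27.1 and 8.61 to 16.2). Of 7 B and plasma cell markers 4 were tested and Jchain passed as higher in old livers (5.41, adjusted p = 0.0127), with summed levels of 0.5305 to 1.229 and 1.535 to 5.097. Jchain was well above background on 1 young and 4 old arrays, so it was tested through the old group and its size is not exact (2.70 with normexp and quantile scaling). It missed the threshold without young replicates 1 and 2 (adjusted p = 0.112). Slc40a1, Cxcr2, Chil3 and Gpr182 were named after their values were seen, and values with arrays left out are not given for them. Each was highest on young replicates 1 and 2. The part of any of these lists in the values of the 9 genes was not tested.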

How the data were processed

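Liver total RNA of 8 samples was read on 8 single-colour (Cy3) arrays. These were on 1 slide in 1 scan, per the file headers. The authors made the spot intensity values of the scanner files with Feature Extraction 10.7.3.1, with spatial and multiplicative detrending on, per the file headers. The submitters' processing notes give version 9.1. A series table that the authors deposited held the same intensity values (100% of single-spot probes within 1% of the scanner files) and 0 columns of other samples. It was used only as an alternative. The flags used (above background, outlier, saturated) are those the authors deposited.

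Processed signals were taken as log2, outlier spots left out, repeat spots averaged, and the 75th percentile over the 56605 non-control probes of the array subtracted. A probe was tested when well above background on at least 4 of 8 arrays, and a gene was its brightest tested probe, which gave 17565 genes. The age difference was fitted in limma 3.58.1 under R 4.3.3, with lmFit and eBayes, Benjamini-Hochberg adjustment over all genes and a threshold of 0.05. Intervals are at 95%. The number of arrays limits the precision. The fit was tested on simulated data with independent noise for each gene and array. Such data do not hold the differences between arrays seen here, and no conclusion is drawn from them. Replicate numbers are shared by both ages, and nothing says that they pair samples.

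The members, lists and rules were chosen with earlier results of these data known. Named are the 10 members, and per related list the 3 genes with the smallest p and any past the threshold. Markers named with a difference are up to 3 per list from those with the smallest p. Also named are the 3 nearest profiles of the 3 members with the largest SD. No member probe was saturated. Alternatives were normexp (offset 50) with quantile or percentile scaling, scaling by quantiles or the median, no filter or a stricter one on dim probes, probe means per gene, a robust trended prior, weighted arrays, a replicate block, outlier spots kept, the deposited table, and arrays left out singly or as the first young pair.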

Additional observations from a re-analysis of the deposited data

Results flagged for a closer look

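Groups of 4 values were the 21 probes of the members and the other genes named with a difference, except Slc40a1, Cxcr2, Chil3, Gpr182 and Adora3, at each age. In 94 such groups, 3 held an array far from the other 3, which is 3.19% where chance gives about 5%. The Tlr4 probe A_55_P2603039 read 0.196 on old replicate 2, the array on which alone it was well above background, where the next highest old array read -4.84. Tlr12 read 1.52 on old replicate 1, below the other old arrays, of which the lowest was 2.90. The neutrophil marker S100a8 read 4.94 on young replicate 2, above the other young arrays, of which the highest was 3.94.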

How the results depend on the processing

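Over 189 combinations of 9 members and 21 other settings, 0 passed the threshold and 9 turned in sign. Hmgb1 turned under quantile (-0.0243) and median scaling (-0.0636), the mean of its probes (-0.0797), array weights (-0.0599), without young replicate 2 or old replicate 1 (range with 1 array left out -0.0536 to 0.0923) and without young replicates 1 and 2 (-0.0629). Cd14 turned without young replicate 4 or old replicate 4 (range -0.277 to 0.287). Over all genes, 58 were higher and 5 lower. The higher count was 136 with weighted arrays, 12 without the first young pair, and from 25 to 69 with 1 array left out. With probes above background on all arrays, which leaves 15478 genes, 20 were higher and 1 lower, where the fit to 17565 genes called 23 and 1 of the genes left. The lower count was 8 with quantile scaling, with no filter and with a trended prior, 13 with median scaling, 9 with the mean of probes, 36 with weighted arrays, 2 without the first young pair, and from 2 to 14 with 1 array left out.

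With the replicate number as a block the lower count was 17 and 2 related genes, Fpr1 and P2ry6, passed as lower. Deviations of same-numbered arrays correlated at 0.03, 0.14, 0.11 and 0.10. The labels do not say that the numbers pair samples, so they were not taken as pairs, and whether they do was not settled. The number was also the position of the array along its row of the slide. Pairing of samples and slide position cannot be told apart. Young replicates 2, 3 and 4 correlated best with the old array of their own number, and young replicate 1 with old replicate 2. Of the 97 related genes, 0 higher and 0 lower otherwise, 1 was higher with normexp and quantile scaling (Tlr5), 1 higher and 1 lower with array weights (Tlr5, Fpr2), 1 lower with no filter on dim probes (Adora3, -1.97, which is not among the 78 tested and was named after its value was seen) and from 0 to 1 higher with 1 array left out (Tlr12). The causes were not tested. Median scaling moved the median difference of all genes from 0.02 to -0.09, and no filter moved it to 0.19. Dim probes limit what can be said of Tlr3 and of the Tlr4 mRNA.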
